A study of Mus musculus and Homo sapiens with 12 samples.

Results

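MMERGLN is a family of mouse endogenous retroviruses, the remains of gammaretrovirus-like infections of the germ line. A complete copy, or provirus, consists of an internal part, which carries the genes of the virus, between a pair of long terminal repeats (LTRs). The LTRs hold the promoter and the polyadenylation signal, and both copies are identical when the provirus integrates, so that differences between them accumulate with age. Reverse transcription starts from a cellular tRNA that pairs with the primer-binding site next to the 5′ LTR, and the family is named after the glutamine tRNA. In mouse embryonic stem (mES) cells most endogenous retroviruses are held silent by repressive chromatin.

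The members are the 840 elements of the mouse table, of 3158171 in all, that are annotated as family ERV1 and carry a subfamily name beginning with MMERGLN. They comprise 481 elements named MMERGLN-int, for the internal part, and 359 named MMERGLN_LTR. The family was selected on its measured values, since MMERGLN_LTR counts were higher in Tet2-KO than in WT cells, so every KO and WT value of the members below is a description and carries no test. The data are 6 libraries of chromatin-associated RNA (caRNA) from mES cells (m5C meRIP–seq, in which an antibody pulls down RNA that carries 5-methylcytosine, m5C), 3 of WT and 3 of Tet2-KO cells. The KO cells lack Tet2, which codes for an enzyme that oxidizes 5-methylcytosine in DNA and RNA, and both lines came as gifts from another laboratory. The lines were cultured alike, in serum with LIF and inhibitors of MEK and GSK3. How many clones each line represents, and the strain of the cells, are not given in the sources used here. The study calls its replicates biological, and whether they were separate cultures is not given in the sources used here.

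WT libraries held 2199886 to 3318565 counts over the repeat classes DNA, LINE, LTR and SINE, and KO libraries held fewer, 1532029 to 1999210, so that depth differed with genotype. Values below are counts per 1000000 of these totals (c.p.m.) unless stated, given as mean ± SD with n = 3 libraries per genotype. The table holds repeats alone, so neither the cell type nor the loss of Tet2 could be checked on genes. Input RNA was not analysed here, so a difference between genotypes combines RNA abundance with m5C enrichment, and in bulk RNA more cells with a transcript cannot be told apart from more transcript per cell.

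Counts were given to 351 of the 840 elements. The row names divided the family by structure, and the counts followed that division more than the name of the subfamily. In 69 MMERGLN_LTR rows the annotation had joined several fragments into 1 element. Of these, 62 were 5000 bp or longer, with a median of 8415 bp, and are called joined proviruses here. A further 290 MMERGLN_LTR rows were single LTRs with a median length of 430 bp, which is the form that recombination between LTRs leaves behind. The 481 internal rows carry the name of the internal part alone, and 114 were 5000 bp or longer. In some of them, such as chr5:24771856-24776629, the annotation had also joined fragments, and which fragments was not examined. Of the 59 internal rows of 8000 bp or longer, 46 lay on chromosome Y. Among the 66 internal rows of 5000 bp or longer that lay elsewhere, 27 had an LTR of another name on both sides within 100 bp, most often RLTR1A2_MM, which flanked 10.

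The joined proviruses are close copies of each other. In 54 of the 62 an LTR was found at both ends, and in 16 of these both LTRs were identical over their whole length. Among 45 proviruses of similar length with an LTR pair, the identity of the 990 pairs ran from 89.5% to 99.75%, with a median of 98.2%. Reads from such copies cannot all be placed. In the median joined provirus 32.9% of 100-base windows occurred once in the genome, and 14.7% of 50-base windows. The share of values above 0 that were whole numbers (within 0.005), which a count of undivided reads gives, was 4.4% in joined proviruses, 12.8% in all members and 22.3% in the whole table. A count of a single provirus is therefore an estimate in which its close copies have a part, and the counts of different proviruses are not independent.

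The part of the LTR that holds the start and end signals of transcription is shown for the provirus with the second most counts, on chromosome 2, and for a provirus on chromosome 4 that had the lowest KO-to-WT ratio among the 15 with the most counts and was chosen after its values were seen. Both are read 5′ to 3′ on the plus strand of mm10, at chr2:94801244-94801513 and chr4:75067238-75067507, from base 181 of the 5′ LTR to base 450, which is the end of the primer-binding site. Capitals mark the promoter motif TATAAAA first. The next capitals are a variant of the polyadenylation signal, ATTAAA, and the last are the primer-binding site of 18 bases.
chr2 provirus: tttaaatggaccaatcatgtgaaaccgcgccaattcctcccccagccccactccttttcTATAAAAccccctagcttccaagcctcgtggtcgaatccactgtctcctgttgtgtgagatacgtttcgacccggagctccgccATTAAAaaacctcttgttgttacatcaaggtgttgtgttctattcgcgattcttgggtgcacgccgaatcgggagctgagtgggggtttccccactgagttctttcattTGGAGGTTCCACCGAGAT
chr4 provirus: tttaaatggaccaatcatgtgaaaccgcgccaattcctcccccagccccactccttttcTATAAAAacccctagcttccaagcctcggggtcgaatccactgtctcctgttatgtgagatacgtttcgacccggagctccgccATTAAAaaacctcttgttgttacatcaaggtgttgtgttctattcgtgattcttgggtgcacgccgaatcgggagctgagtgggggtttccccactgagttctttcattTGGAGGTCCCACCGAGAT
With positions counted from 1 at the first base of the LTR, and the base of the chromosome 2 provirus given first, the printed stretches differ at C247A, T268G, G292A, C370T and, in the primer-binding site, T440C. Upstream of them the LTRs differ at C60G, T89C and G171A. TATAAAA starts at base 240 and ATTAAA at base 324. Searched on both strands in bases 101 to 400, both motifs were present in 34 of 34 LTRs of 430 bp, against 5.48% and 13.9% of 32851 promoter windows of 300 bases taken from RefSeq (GRCm38.p6). These matches are descriptions of the letters and do not show that a factor bound there. Among the 5′ LTRs of 430 bp that aligned without a gap, 33 were compared with that of the chromosome 2 provirus. They had 0 to 20 differences with a median of 4, and 5 had none.

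The primer-binding site divided the proviruses further. It was compared with the 3′ ends of the tRNA genes in the RefSeq annotation, with the added CCA end, and up to 2 differences were accepted. A glutamine tRNA was the best match in 45 of the 54 proviruses with an LTR pair, a threonine tRNA in 6, and 3 had no match. The site of chr10:25895611-25904025, counted among the 45, lay 1 base from a glutamine and also 1 base from a threonine tRNA end. The most frequent forms, each shown with the last 8 bases of the LTR and the 2 bases after it in lower case and the site in capitals, each matched a tRNA without difference.
glutamine, 29 proviruses (chr4:51871871-51871898, plus strand): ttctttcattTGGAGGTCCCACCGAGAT
glutamine, 9 proviruses (chr2:94801486-94801513, plus strand): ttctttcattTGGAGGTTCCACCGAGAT
threonine, 5 proviruses (chr12:43961428-43961455, minus strand): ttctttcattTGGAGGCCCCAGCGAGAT
The median KO-to-WT ratio was 3.295 in the 45 proviruses with a glutamine site and 3.99 in the 6 with a threonine site. These groups overlapped widely, at 0.803 to 19.9 and 1.54 to 8.85.

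Summed over all members, the members held 4744, 3741 and 3846 c.p.m. in WT and 11793, 13669 and 15339 in KO. The groups did not overlap, and the family took 0.374% to 0.474% of the counts of a WT library and 1.18% to 1.53% of a KO library. By length, the 114 elements of 8000 bp or longer went from 3416 ± 349 c.p.m. in WT to 12359 ± 1246 in KO, 3.62-fold or 1.86 on the log2 scale. The 726 shorter elements stood at 695 ± 247 c.p.m. in WT and 1241 ± 717 in KO, 0.84 on the log2 scale. The ranges of the genotypes overlapped for these shorter elements. Without KO replicate 3, which held 2069 c.p.m. against 801 and 854 in the other KO libraries, the value of the shorter elements was 0.25. The length limit lay in a gap. The longest elements below it were the joined provirus at chr10:17317062-17324663, of 7602 bp, and an internal row at chr3:94677040-94684702, of 7663 bp, with at most 1 count in a library. The shortest above it were an internal row at chr18:7823652-7831687, of 8036 bp and at most 1 count in a library, and the joined provirus at chrY:2579642-2587814, of 8173 bp, with 5.87 to 89.97 counts in WT and 243.63 to 396.03 in KO libraries.

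A joined structure together with a length of 5000 bp or longer separated the elements better than the limit of 8000 bp did. Structure alone did not: the 7 joined elements under 5000 bp held 28.6, 3.40 and 12.4 c.p.m. in WT. In KO they held 74.2, 15.5 and 14.7, with overlapping libraries. The division into joined proviruses and other rows was chosen after the data were seen. The 62 joined proviruses held 3833, 3051 and 3407 c.p.m. in WT and 11312, 13276 and 13818 in KO, 3430 ± 391 against 12802 ± 1319. Every KO library lay above every WT library, and the ratio was 3.73-fold, or 1.90 on the log2 scale. The 55 joined proviruses of 8000 bp or longer and the 7 that were shorter gave 1.91 and 1.78. Among the 7, the provirus at chr10:17317062-17324663 held 142 of 161 c.p.m. in WT and 490 of 552 in KO. The value of 1.78 is thus largely that of 1 provirus. The 59 internal rows of 8000 bp or longer stood at 146 ± 61.6 c.p.m. in WT and 109 ± 78.6 in KO, −0.42 on the log2 scale with overlapping libraries. They differ from the 55 joined proviruses of that length in more than structure. Of the 59, 46 lay on chromosome Y and 27 had counts, against 2 and 55 of the 55. Their median CpG content was 0.55 per 100 bp, against 2.96. The part of the LTRs in this difference was not tested. The joined proviruses made up 83.9% of all member counts in WT and 93.8% in KO.

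**Figure D1:**
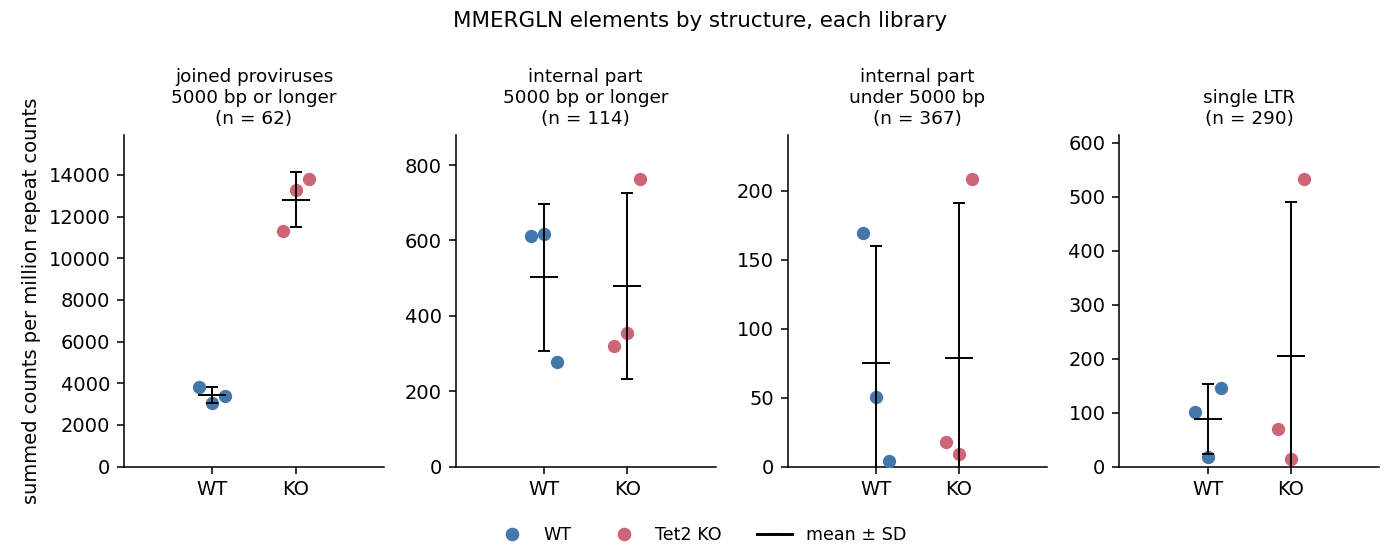
Summed c.p.m. of repeat counts (vertical axes, each from 0) in the 3 WT and 3 Tet2-KO libraries for 4 structural groups of MMERGLN elements, with points for libraries and bars for mean ± SD, cut at 0. The joined proviruses lie between 3051 and 3833 in WT and between 11312 and 13818 in KO, whereas in the other 3 groups the genotypes overlap.

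In the internal rows and the single LTRs the genotypes overlapped, and the sign of the ratio changed when single libraries were left out. All internal rows together held 781, 668 and 281 c.p.m. in WT and 338, 364 and 973 in KO. Their log2 ratio of −0.05 ran from −0.72 without KO replicate 3 to 0.23 without WT replicate 1. Single LTRs held 102, 18.6 and 145 c.p.m. in WT and 69.8, 13.5 and 534 in KO. Their log2 ratio was 1.22 with all libraries and −1.09 without KO replicate 3. Of the 10 single LTRs with at least 50 counts, a single library supplied 90% or more of the counts in 10, and this was KO replicate 3 for 6 and WT replicate 3 for 4. The same held for 7 of 33 internal rows and for 0 of 50 joined proviruses. Over all elements of the mouse data the share was 14.3% of those with at least 50 counts, and the cause of these counts was not tested.

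In WT cells alone the structures already stood apart in level. Per kb of annotated length, the joined proviruses of 8000 bp or longer had 6.79 c.p.m. per kb, the single LTRs 0.786 and the internal rows of 8000 bp or longer 0.241. Rows without any count are part of this length. Counts were given to 55 of 55 of these joined proviruses, 154 of 290 single LTRs and 27 of 59 of these internal rows. Of the 59, 46 lay on chromosome Y. By length alone, elements of 8000 bp or longer had 3.14 c.p.m. per kb and shorter ones 0.664.

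In the fit of single elements (edgeR quasi-likelihood test over 19030 elements that passed the count filter), 63 of the 840 members could be tested: 48 joined proviruses, 14 internal rows, 1 joined element under 5000 bp and no single LTR. At an adjusted p under 0.05, 9 elements of the table were called higher in KO, 0.0473% of those tested, and 4 of these 9 were joined MMERGLN proviruses. No element of the 19030 was called lower, while 1508 had an unadjusted p under 0.05 and a lower value in KO. None of the 4 stayed called, and 0 elements of the table were, when any 1 of the 6 libraries was left out. By the DESeq2 Wald test 31 members and 2158 elements were called. Because these members were selected for this contrast, nothing is read from the share that was called. In the 63 tested members, KO libraries lay above all WT libraries in 36, where 11.6% of all tested elements did so, and below all WT libraries in 3, against 19.7% of all tested elements. On the TMM scale the fitted log2 change was above 0 in all 48 joined proviruses that were tested, at 0.13 to 5.83 with a median of 2.01, and in 8 of the 14 internal rows, with a median of 0.14. The median over all 19030 elements was 0.03. The filter admits an element that is high in 1 genotype alone, so these medians are no evidence of their own. Scaled by library totals, 51 of the 63 tested members were above 0, against 56 on the TMM scale. Fitted values are on the TMM scale, which raised the KO-to-WT ratio of the summed members by 0.28 (log2) over the c.p.m. scale.

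The 10 elements with the highest mean count were all joined proviruses, and each was higher in every KO than in every WT library. Of all tested elements, 11.6% had every KO above every WT library. The ranking includes the KO libraries and so favours elements that are high in KO, and nothing is read from this separation. The provirus at chr8:121832845-121841264, which overlaps an exon of the gene model Gm42047 on the same strand, had the most counts. This provirus held 101, 43.6 and 56.2 c.p.m. in WT and 1394, 1178 and 1406 in KO, a fitted log2 change of 4.57 ± 0.35 (SE). In WT it ranked below the other 9, with 66.8 ± 29.9 c.p.m., and in KO above all of them. Its LTRs are identical to each other, 24.2% of its 100-base windows occur once in the genome, and its longest reading frame without a stop spans 1180 codons. The cause of its larger ratio was not tested.

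Next came 4 proviruses of nearly the same length and sequence. At chr2:94801064-94809477, between genes, 68.0, 77.8 and 124 c.p.m. in WT stood against 687, 770 and 908 in KO, with a fitted log2 change of 3.39 ± 0.31. The intergenic provirus at chr4:51871449-51879864 was even across replicates, with 105, 102 and 112 c.p.m. in WT and 551, 677 and 792 in KO, and a log2 change of 2.93 ± 0.23. These and the chromosome 8 provirus were called in the fit. At chr15:83193759-83202173 the values were 168, 62.6 and 95.3 c.p.m. in WT and 530, 780 and 693 in KO, 2.90 ± 0.40 on the log2 scale and not called. The provirus at chr10:25895611-25904025, which overlaps an exon of the gene model Gm47939 on the same strand, was the remaining called member. It had 140, 171 and 151 c.p.m. in WT and 526, 545 and 643 in KO, a log2 change of 2.15 ± 0.21. The 5′ LTRs of these 4 were identical, and that of the chromosome 8 provirus differed from them by 1 base, C370T.

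The other 5 of the 10 were not called. At chr10:7474439-7482889, 801 bp from the gene Ulbp1, a ligand of an activating receptor of natural killer cells, WT values were uneven at 53.6, 55.9 and 218 c.p.m. and KO values were 678, 338 and 582. The joined provirus at chr10:17317062-17324663, the only 1 of the 10 under 8000 bp, held 157, 150 and 119 c.p.m. in WT and 421, 592 and 457 in KO, a log2 change of 2.06 ± 0.24. At chr5:81625629-81634042, in an intron of Adgrl3, an adhesion receptor gene, and on the opposite strand, 118, 48.0 and 72.3 c.p.m. stood against 583, 627 and 540, with 3.14 ± 0.35 on the log2 scale. The proviruses at chr6:7719104-7727490 and chr1:83981108-83989522 had log2 changes of 2.83 ± 0.48 and 1.71 ± 0.39. The 10 together held 26.1% of the member counts in WT and 47.4% in KO, and without them the remaining 52 joined proviruses went from 2360 ± 223 to 6337 ± 951 c.p.m., 1.42 on the log2 scale.

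**Figure D2:**
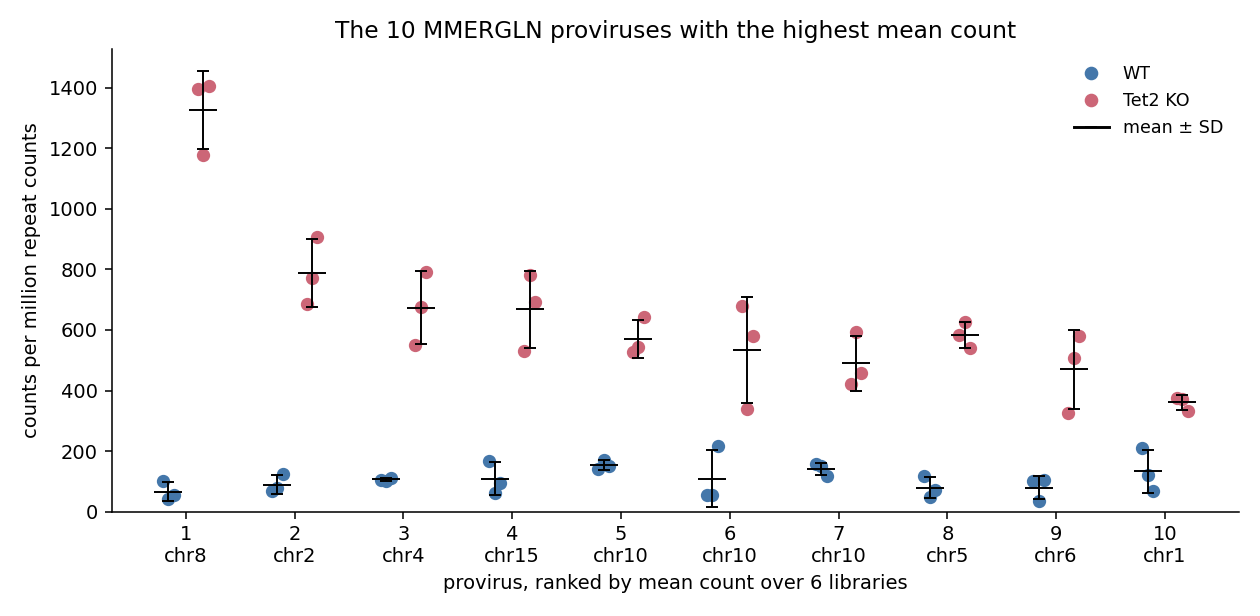
C.p.m. of repeat counts (vertical axis, from 0) of the 10 MMERGLN proviruses with the highest mean count, in rank order with their chromosome, for 3 WT and 3 Tet2-KO libraries with mean ± SD. In each of the 10 every KO point lies above every WT point, and the first, on chromosome 8, reaches 1178 to 1406 in KO from 43.6 to 101 in WT. The ranking includes the KO libraries and so favours elements that are high in KO.

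The proviruses did not all change alike. Of the 62 joined proviruses, 56 had a higher mean in KO than in WT. In 35 of the 48 that were tested every KO library lay above every WT library, where 11.6% of all tested elements did so, and nothing is read from this since the members were selected for the contrast. The ratio of means ran from 0.255 to 163, with a median of 3.50. The provirus at chr4:75067058-75075476, whose LTR is shown above, had the highest WT mean of all members, at 185, 167 and 242 c.p.m., and 192, 231 and 117 c.p.m. in KO. Its groups overlapped, and its fitted log2 change of 0.13 ± 0.31 turned to −0.13 with library totals and without KO replicate 2. It is 98.8% identical to the chromosome 8 provirus, 26.7% of its 100-base windows occur once in the genome, and its LTRs are 99.8% identical. At the other end, the provirus at chr4:3355824-3364151, chosen after its values were seen, had 0.909, 0 and 0.0994 c.p.m. in WT and 35.8, 31.1 and 97.6 in KO, so that its ratio, the highest of the 62 and of the fitted changes, rests on WT counts of 2.0, 0 and 0.33. In this copy the LTRs are 92.0% identical and 95.9% of the 100-base windows occur once, so most of its reads can be placed.

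**Figure D3:**
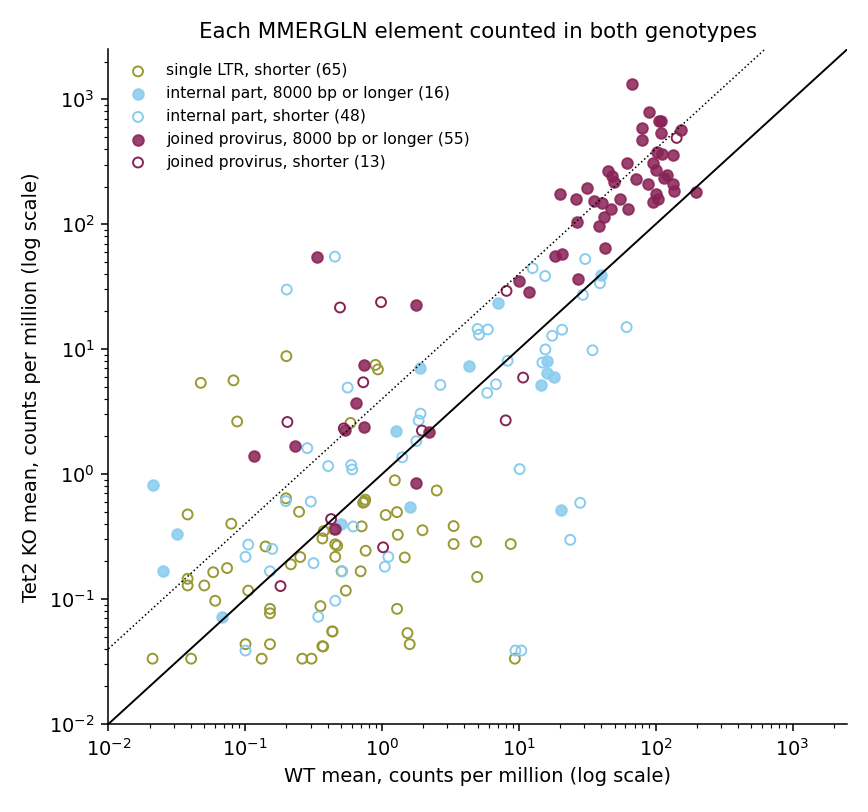
Mean c.p.m. in Tet2-KO (vertical axis, log scale) against WT (horizontal axis, log scale) for the 197 MMERGLN elements counted in both genotypes, with filled points for elements of 8000 bp or longer. The solid line marks equal values and the dotted line a 4-fold higher KO value. Most joined proviruses lie above the solid line, and single LTRs and internal rows scatter on both sides of it.

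Elements with the lowest fitted changes were internal rows. The row at chr4:146132358-146139230 held 99.7, 83.2 and 0.904 c.p.m. in WT and 11.3, 7.90 and 25.8 in KO, a log2 change of −1.69 ± 1.26, so that WT replicate 3 alone was below the KO libraries. Among the elements under 8000 bp this row had the highest count but 1, after the provirus at chr10:17317062-17324663, and the row at chr1:45733031-45739856 came next with overlapping libraries (log2 change 1.08 ± 0.92). Both 9050-bp rows at chrY:2776028-2785077 and chrY:2873584-2882633 were lower in every KO library than in every WT library. The former held 22.5, 14.3 and 17.6 c.p.m. in WT and 5.27, 8.07 and 4.60 in KO, and the latter 20.7, 11.7 and 11.4 against 3.64, 7.72 and 4.21. In neither row does any 100-base window occur once in the genome, so their counts come from shared reads.

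Sequence features that went with the level of a provirus had little rank correlation with its ratio over all 62. Over the 62 joined proviruses, CpG content, the density of the dinucleotide at which mammalian DNA is methylated and which decays with age, had a Spearman correlation of 0.80 with the WT mean and 0.82 with the KO mean, and of −0.01 with the ratio. The share of unique 100-base windows gave −0.83, −0.84 and 0.04. For the 54 proviruses with an LTR pair, LTR identity gave 0.63, 0.72 and 0.07. Among the 36 proviruses with at least 1000 counts, CpG content had weaker correlations of 0.35 and 0.41 with the levels and 0.05 with the ratio. In the same 36, unique windows gave −0.41, −0.48 and −0.06, and LTR identity gave 0.18, 0.40 and 0.27. The 36 were chosen on their counts over both genotypes, which narrows the range of levels. These correlations are across loci that share reads, libraries and ancestry, and are descriptions. The 16 proviruses with identical LTRs had a median of 84.7 c.p.m. in WT and 314 in KO. The 20 with 99% to under 100% identity had 70.6 and 199, and the 18 below 99% had 1.98 and 25.4. The median ratios in these groups were 4.14, 3.05 and 3.71, and the log2 ratios of their sums were 2.32, 1.58 and 1.37.

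**Figure D4:**
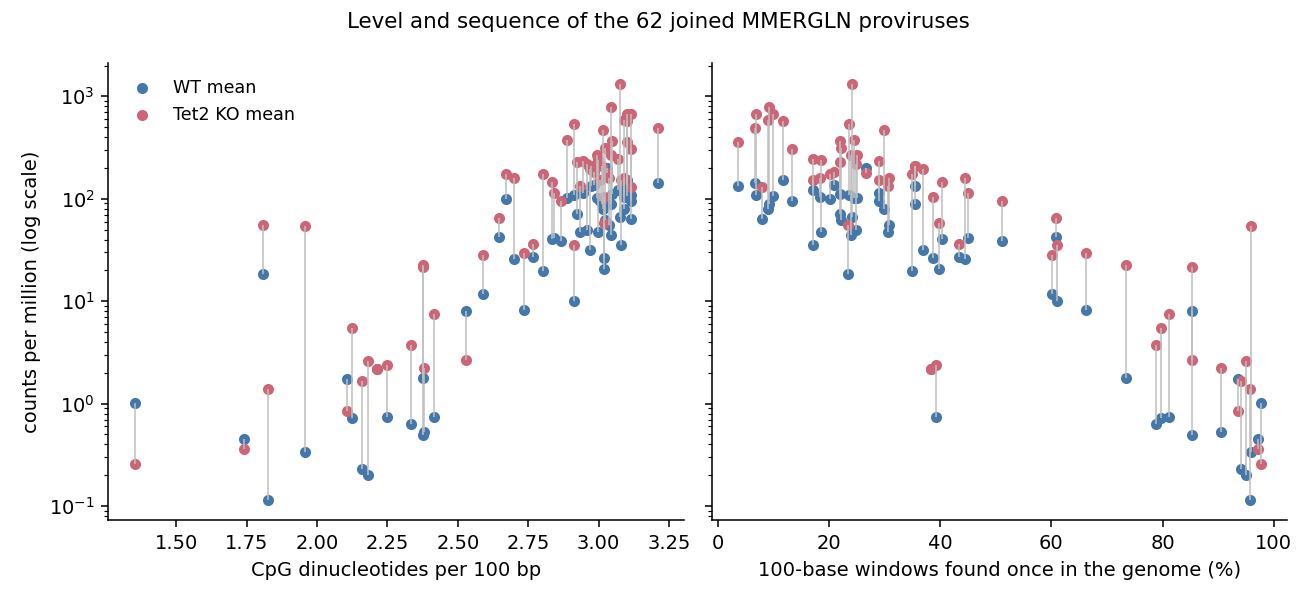
Mean c.p.m. (vertical axis, log scale) in WT and Tet2-KO cells of each of the 62 joined proviruses, joined by a line, against CpG dinucleotides per 100 bp and against the percentage of 100-base windows that occur once in the genome. Levels rise with CpG content and fall with uniqueness in both genotypes, with Spearman correlations of 0.80 and −0.83 in WT.

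The sums were higher in KO both where few windows were unique and where most were. The 13 proviruses with under 20% unique 100-base windows went from 1282 to 5376 c.p.m. in sum, 2.07 on the log2 scale. The 30 with 20% to 50% went from 2021 to 7045 c.p.m. (1.80), and the 19 with 50% or more went from 127 to 382 c.p.m. (1.58). The median WT level of the last group was 0.739 c.p.m. Every KO library lay above every WT library in 13 of the 13, 20 of the 30 and 10 of the 19. Of all tested elements 11.6% did so, but only 48 of the 62 proviruses were tested, so these sets are unlike. Nothing is read from these counts, since the members were selected for the contrast.

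One LTR base, the commonest difference from the LTR of the chromosome 2 provirus and chosen after the values were seen, went with the KO level. Among the 34 proviruses outside chromosome 18 with a 5′ LTR of 430 bp, base 247 was C in 14 and A in 20. This base follows TATAAAA directly. C247A is the difference just after the capitals of the TATA sequence in the pair of LTRs shown above. Most LTRs with A at this base also carried C370T and G292A, so base 247 cannot be told apart from these linked bases. Proviruses on chromosome 18 were not included. Among them, chr18:24532146-24540489 has such an LTR, with 47.7 c.p.m. in WT and 241 in KO. Proviruses with C had 44.4 to 154 c.p.m. in WT, with a median of 104, and 246 to 1326 in KO, with a median of 480. Proviruses with A had 0.640 to 198 c.p.m. in WT, with a median of 36.8, and 3.72 to 270 in KO, with a median of 143. The ranges overlapped in WT, and in KO only between 246 and 270 c.p.m., and the median ratio was 4.80 with C and 2.76 with A. Copies that share the base are also closer copies of each other, with a median of 12.5% unique 100-base windows for C and 37.8% for A, and the part of read sharing in this difference was not tested.

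Repeats around the proviruses showed no such separation of the genotypes. Non-member repeats within 10000 bp upstream of the 62 proviruses, 793 elements in all, summed to 43.3, 25.9 and 93.0 c.p.m. in WT and 34.4, 62.3 and 46.9 in KO. The 795 elements downstream summed to 252, 26.4 and 59.5 c.p.m. in WT and 135, 16.8 and 28.0 in KO. Both sets overlapped between genotypes, while the proviruses between them went from 3430 to 12802 c.p.m. The flanking counts were sparse: 24 of the 62 proviruses had none upstream in any library, and 31 had none downstream. By position, 46 of the 62 proviruses were intergenic, 7 were in introns and 9 overlapped an exon of an annotated gene. The log2 ratios of these 3 groups were 1.81, 1.73 and 2.23.

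The other groups of long mouse proviruses compared here had smaller or opposite ratios. The names RLTR6, for the VL30 elements, IAPEz, for the intracisternal A-particles, and MERVL, elements active in the earliest embryo, were set beside the members at 5000 bp or longer. RLTR6 elements, of which 270 were that long, had 7410, 7287 and 7203 c.p.m. in WT and 10544, 7659 and 9445 in KO, a log2 ratio of 0.34. The 1027 IAPEz elements had 23011 ± 3467 in WT and 21278 ± 1549 in KO, −0.11 on the log2 scale with overlapping libraries. The 826 MERVL elements had 17447, 18827 and 14595 c.p.m. in WT and 7472, 6399 and 3676 in KO, a log2 ratio of −1.54. Per kb, all 176 MMERGLN elements of 5000 bp or longer had the lowest mean of the 4 groups in WT, where their libraries overlapped those of IAPEz, and the highest in KO, at 2.60 and 8.78 c.p.m. per kb, against 3.60 and 4.54 for RLTR6, 3.48 and 3.22 for IAPEz and 3.54 and 1.22 for MERVL. The joined proviruses among them, a selection by structure that was not made in the other groups, had 6.50 and 24.3. In the fit of summed subfamilies (edgeR, adjusted p under 0.05), 2 of 547 were called higher in KO, 0.366%, and 9 were called lower. MMERGLN_LTR was called higher with a log2 change of 1.70 ± 0.14, and MERVL-int was called lower at −1.73 ± 0.28. By log2 change MMERGLN_LTR ranked 41 of 547 subfamilies, so others had larger fitted increases. MMERGLN-int, at −0.22 ± 0.53, was not called. RLTR6-int and RLTR6_Mm had 0.11 ± 0.12 and 0.12 ± 0.12, and IAPEz-int −0.34 ± 0.07, and none of these was called.

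**Figure D5:**
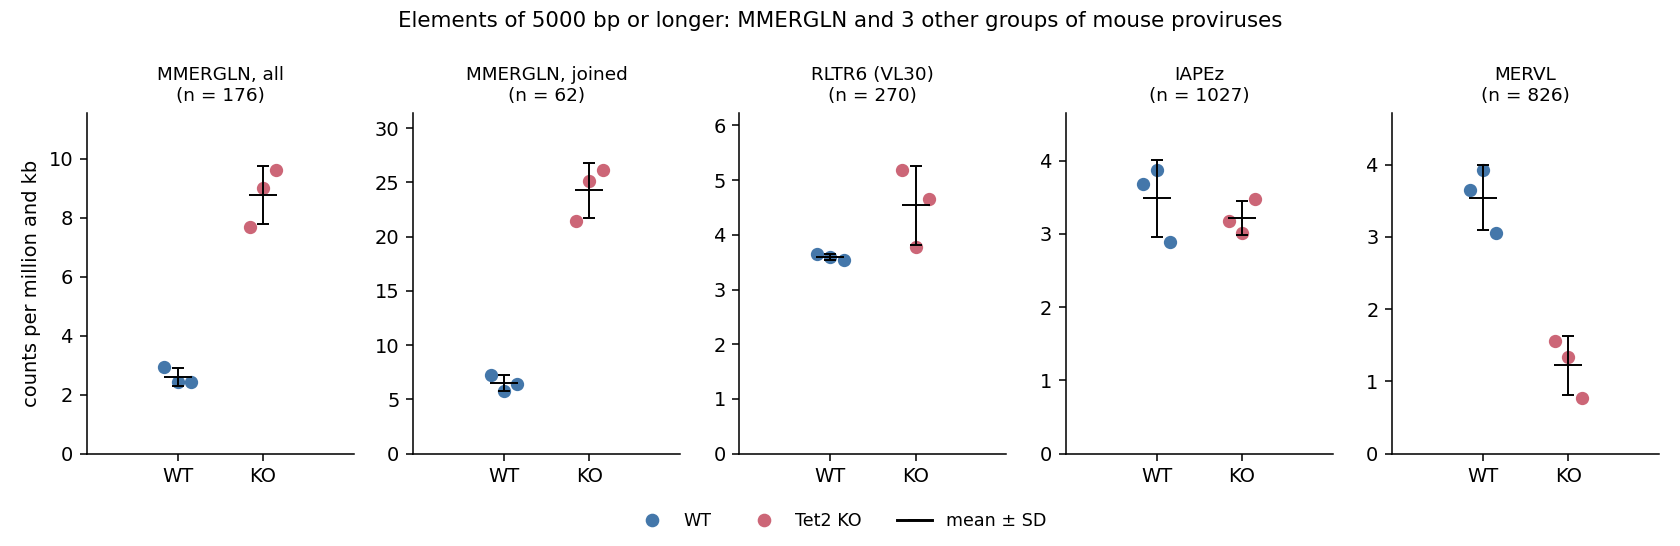
Summed c.p.m. per kb of annotated length (vertical axes, each from 0) of elements of 5000 bp or longer, for 3 WT and 3 Tet2-KO libraries with mean ± SD: all MMERGLN elements, the joined MMERGLN proviruses among them, and all RLTR6, IAPEz and MERVL elements. All MMERGLN elements go from 2.60 to 8.78, joined proviruses from 6.50 to 24.3, RLTR6 from 3.60 to 4.54, IAPEz from 3.48 to 3.22 and MERVL from 3.54 to 1.22.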

How the data were processed

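Reads were trimmed (Trimmomatic 0.39), mapped to the mm10 genome, transcripts and m5C spike-ins (HISAT2 2.1.0) and cleared of duplicates (Picard) by the authors, per the submitters' processing notes and the study's methods. The labels name featureCounts and Onecodetofindthemall, which joins fragments of 1 repeat. The deposited values are estimated counts per repeat element and library, which need not be whole. How shared reads were divided is not given in the sources used here. All 6 columns are of immunoprecipitated RNA, and input and spike-ins were not analysed here. Members, lists and alternatives were chosen with earlier results of these data known.

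Row names gave position, subfamily and structure. Counts were rounded for edgeR 4.0.16 (quasi-likelihood test, filterByExpr, TMM, prior count 2, Benjamini–Hochberg adjustment over all elements tested, calls at 0.05) in R 4.3.3, which was tested on simulated data. SE is the absolute log2 change over the square root of F. Sums were divided by the total of the classes DNA, LINE, LTR and SINE. Elements named are the 10 members with the highest mean count, called members, the 3 members under 8000 bp with the highest mean count, the 3 lowest log2 changes and those beside the length limit, plus those said to be chosen later.

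Sequence features came from GRCm38.p6, whose coordinates are those of mm10: 0 elements ran past a chromosome end, and 835 of 840 members lay on its 21 chromosomes. LTR pairs were local alignments of the first and last 1000 bases (Biopython 1.88), with at least 300 bases and 85% identity. Identity between proviruses was 1 minus edit distance over length (edlib). Windows were counted on both strands. Gene models were GENCODE M21, and the authors named M19. Alternatives were DESeq2 1.42.0 (size factors and Wald test), library totals, a filter of 10 counts, every row, other length limits, a replicate block and leaving out libraries.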

Additional observations from a re-analysis of the deposited data

How the results depend on the processing

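The log2 ratio of the members of 8000 bp or longer, 1.86, was 2.13 with TMM-scaled library sizes and 1.36 without the 10 members with the highest mean count, and 1.79 to 1.94 when single libraries were left out. With libraries paired by replicate number (replicate block) it was 1.86 for these and 0.75 for the shorter members, which ranged from 0.25 to 1.14 without single libraries. A split into joined proviruses and the rest gave 1.90 and 0.23, and leaving out chromosome Y 1.87 and 0.70; both were chosen after seeing the data. The WT level of 3.14 c.p.m. per kb was 2.60 at a limit of 5000 bp, and that of the shorter members, 0.664, was 0.287.

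Calls were less stable than values. The 9 called elements, 4 of them members, became 8 and 4 with DESeq2 size factors, 7 and 3 with library totals, 2158 and 31 with the DESeq2 Wald test, 1 and 0 with a filter of 10 counts, 0 and 0 with the replicate block, and 0 and 0 without any single library. The 11 called subfamilies (2 higher, 9 lower) became 7, 5 and 56 with size factors, library totals and the Wald test, 0 with the replicate block and 5 to 8 without single libraries. Same-numbered libraries did not deviate together over 19030 elements (correlations of −0.0003, −0.0142 and −0.0238). WT and KO libraries of unlike number gave −0.0091 to 0.0232. With all values this near 0, they cannot decide whether the numbers pair the samples. The change of MMERGLN_LTR was 1.88 with library totals, 1.71 with the replicate block and 1.59 to 1.76 without single libraries. That of MMERGLN-int ran from −0.86 to 0.0435 without single libraries and turned positive without WT replicate 1 (0.0435) and KO replicates 1 (0.0182) and 2 (0.0139); the cause was not tested. Of 204 values of the 17 named elements that were tested, 191 stayed within 1 SE, 11 moved further and 2 changed sign, both of chr4:75067058-75075476 (−0.1258 with library totals, −0.1296 without KO replicate 2, in a range of −0.1296 to 0.3502 without single libraries). No single LTR passed the count filter.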

Other observations

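The order of the proviruses differed between genotypes. Over the 62 joined proviruses the WT and KO means had a Spearman correlation of 0.85, and over the 36 with at least 1000 counts it was 0.40, across loci that share reads. The 36 were chosen on their counts over both genotypes, and such a choice can by itself lower this correlation. The provirus on chromosome 8 with the most counts in KO, at 1326 ± 128 c.p.m., had a WT mean of 66.8 c.p.m., and the provirus at chr4:75067058-75075476 with the highest WT mean, 198 ± 38.8 c.p.m., had 180 ± 58.0 in KO.

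The longest stretch without a stop codon in the sense strand had a Spearman correlation of 0.69 with the WT mean and 0.70 with the KO mean over the 62 joined proviruses, and of −0.01 with the ratio. Over the 36 with at least 1000 counts these values were 0.32, 0.27 and −0.06.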
